A study of Mus musculus with 13 samples.

Results

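The genes of prostaglandin synthesis, sensing and breakdown were followed in cultured mouse keratinocytes through 4 h of tamoxifen. The 9 symbols considered were Pla2g4a, Ptgs1, Ptgs2, Ptges, Ptges2, Ptges3, Ptger2, Ptger4 and Hpgd. A probe set, the unit that an Affymetrix array reports, was taken where its annotation named 1 of these genes alone. This gave 11 probe sets of 7 genes, out of 22690 probe sets on the array and 20393 annotated to 1 gene. Both probe sets of Ptges3 also carried the name of a pseudogene copy, and none carried the name of Ptgs1, so these 2 genes were not analysed here. No filter on low values was used; 7 of the 11 probe sets lay at or above the 40th percentile of mean level, and Ptger2, 1 probe set of Ptger4 and both of Hpgd lay below it.

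All cells were primary keratinocytes carrying, by retrovirus, the p63 isoform DNp63alpha joined to an estrogen receptor domain, through which tamoxifen switches the protein on. Cells were sampled at 20, 40, 60, 80, 100, 120, 140, 160, 180, 200, 220 and 240 min after tamoxifen, beside 1 untreated sample, with 1 array each and no replicate. The untreated sample is so named by its title, while its description, shared by all samples, speaks of tamoxifen; values set against it rest on the title. Every sample carried the fusion, so cells without it, and a course without tamoxifen, do not enter the comparisons. Strain, sex and age are not given in the labels, nor is the promoter that drives the fusion.

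Prostaglandins are lipid signals made on demand. Cytosolic phospholipase A2, the product of Pla2g4a, frees arachidonic acid from membranes, the cyclooxygenases of Ptgs1 and Ptgs2 turn it into an unstable endoperoxide, and prostaglandin E synthases turn that into prostaglandin E2. Prostaglandin E2 signals through receptors that include those of Ptger2 and Ptger4, both coupled to cyclic AMP, and is inactivated by the dehydrogenase encoded by Hpgd. In skin Ptgs2 is the inducible cyclooxygenase of wounded, irradiated and growth factor-treated keratinocytes.

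The 13 arrays had medians of 237.4 to 251.5 intensity units and pairwise Spearman correlations of 0.983 to 0.997. The keratinocyte label was checked against markers. Of 15 keratinocyte markers on the array, 14 lay at or above the 40th percentile of mean level, with Krt14 at percentile 100.0 and Krt5 at 99.9. This held for 5 of 11 fibroblast, 3 of 10 immune cell, 0 of 7 mast cell, 6 of 6 melanocyte and 2 of 8 endothelial and muscle markers. The cut thus did not set keratinocyte apart from melanocyte markers, whose median percentiles were 96.4 and 76.5. Over all probe sets, 13.9% passed in the second hour against the first. In limma's fit 0 passed in the third hour against the second and 0 in the fourth against the third (0% each), with 1712 and 2175 at an unadjusted p under 0.05. In bulk RNA, fewer cells of a type and less RNA per cell cannot be told apart.

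Ptgs2 fell and Ptges rose over the course. Between neighbouring hours, both passed the test in the second hour against the first and in no other pair. Of the 11 probe sets, 4 had a linear trend over the 13 arrays past the threshold, an adjusted p under 0.05, against a background of 22.4% of all 20393. The 2 of Ptgs2 fell (10.2% of all probe sets fell) and the 2 of Ptges rose (12.2% rose). The other 7 probe sets, of Ptges2, Ptger2, Ptger4, Hpgd and Pla2g4a, did not pass. Changes are given on the scale of log2(intensity + 16), which understates the change of dim transcripts.

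The Ptgs2 probe set with the higher mean, 1417262_at, read 3175 intensity units in untreated cells, 2688 at 20 min, 3045 at 40 min and 2274 at 60 min. Readings of 1594 at 80 min, 1056 at 100 min and 1183 at 120 min followed, then 1296 at 140 min, 1298 at 160 min and 1115 at 180 min. The last hour gave 805.6 at 200 min, 712.2 at 220 min and 967.4 at 240 min. The 9 arrays from 80 min lay between 712.2 and 1594, all below the 4 arrays up to 60 min, which lay between 2274 and 3175. Such a full separation downward was found at 6.73% of all probe sets. The lowest reading, at 220 min, was 22.4% of the untreated one.

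The second Ptgs2 probe set, 1417263_at, read 1660.1 in untreated cells, 1267 at 20 min, 1684 at 40 min and 1139 at 60 min. Readings of 633.3 at 80 min, 433.9 at 100 min and 494.2 at 120 min followed, then 603.8 at 140 min, 541.7 at 160 min and 476.9 at 180 min. The last hour gave 456.3 at 200 min, 365.7 at 220 min and 372.0 at 240 min. Again the 9 arrays from 80 min, at 365.7 to 633.3, lay below the 4 earlier ones, at 1139 to 1684. Both probe sets dipped at 20 min and were back near the untreated reading at 40 min, a swing that rests on single arrays. Their Pearson correlation was 0.97 over the 13 arrays, a description of 2 readings of the same RNA samples.

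**Figure D1:**
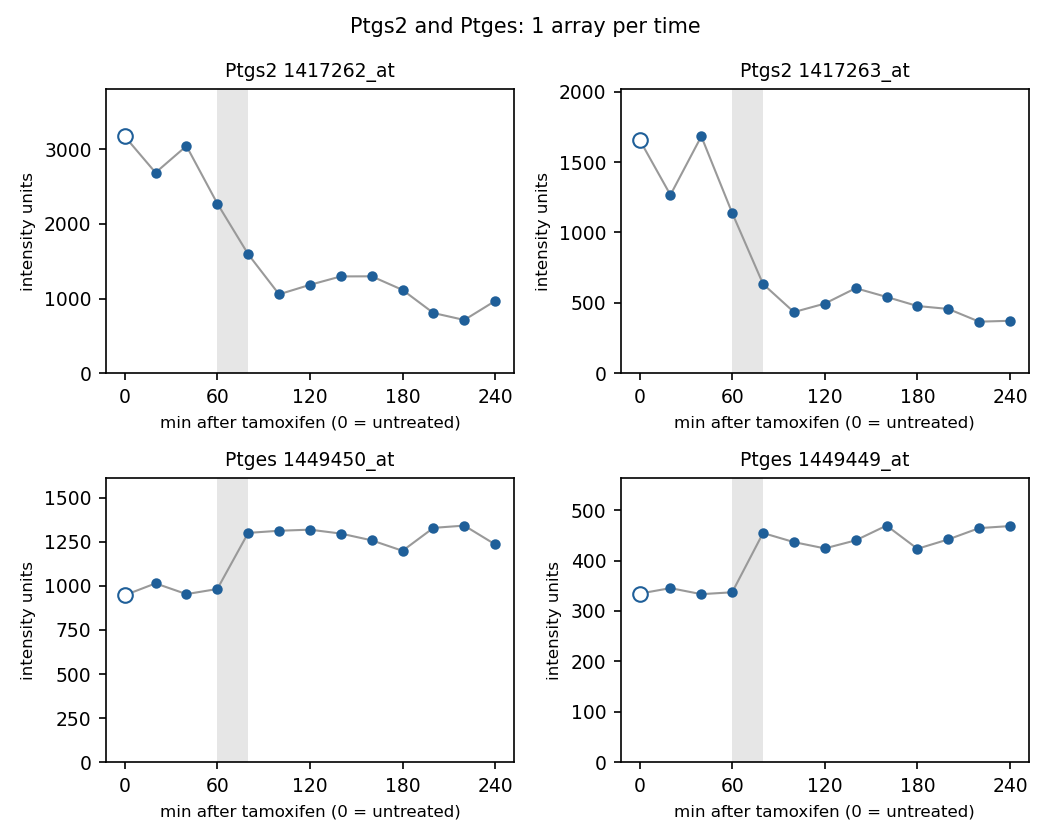
Intensity units (y, from 0) of the Ptgs2 and Ptges probe sets against minutes after tamoxifen (x), 1 point per array, with the untreated array as an open circle and the interval from 60 to 80 min shaded. Ptgs2 readings from 80 min all lie below the earlier ones, as at 6.73% of all probe sets. Ptges readings from 80 min all lie above them, as at 7.18%.

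The fitted fall of Ptgs2 over 4 h was 4.05-fold at 1417262_at (log2 change -2.02 ± 0.223, SE over 13 arrays; adjusted p = 0.000128 in limma's fit) and 4.41-fold at 1417263_at (-2.14 ± 0.278; adjusted p = 0.000186). Among the 20393 probe sets the fitted slope of 1417263_at was the lowest and that of 1417262_at ranked 4 from the lowest. When the hours were compared, with 3 arrays in each, the first hour differed from the untreated array by -0.26 ± 0.207 and -0.30 ± 0.215 (log2, SE; adjusted p = 0.9998 for both). In that comparison 0.00981% of all probe sets passed.

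In the second hour Ptgs2 fell below the first hour by 1.07 ± 0.146 on the log2 scale at 1417262_at (adjusted p = 0.000463) and by 1.36 ± 0.152 at 1417263_at (adjusted p = 0.000127). This was 2.09-fold and 2.57-fold, ranks 10 and 2 from the lowest of 20393, where 7.27% of all probe sets passed as lower. The third hour differed from the second by -0.029 ± 0.146 and 0.064 ± 0.152, neither of them past the threshold. The fourth hour differed from the third by -0.58 ± 0.146 and -0.43 ± 0.152, with unadjusted p of 0.00163 and 0.0144 and adjusted p of 0.385 and 0.389. Without the 240 min array the fourth-hour difference of 1417262_at passed (-0.69, adjusted p = 0.0125), while 22 of 24 alternative fits of it did not. The fourth hour differed from the first by -1.67 ± 0.146 and -1.72 ± 0.152 (adjusted p = 1.74e-05 and 1.76e-05), a comparison in which 21.1% of all probe sets passed and 9.42% passed as lower.

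The change between 60 and 80 min was also fitted as a step in place of the line, a form chosen with these data known. Ptgs2 from 80 min differed from the earlier arrays by -1.34 ± 0.162 and -1.53 ± 0.138 on the log2 scale (adjusted p = 1.86e-05 and 1.52e-06), where 25.1% of all probe sets passed. A step at that place left 18.7% of the variance of 1417262_at over the arrays, against 16.1% left by a straight line. For 1417263_at the shares were 11.1% and 21.04%. Within the 9 arrays from 80 min the slopes were -0.29 ± 0.0768 and -0.21 ± 0.0629 per hour (adjusted p = 0.246 and 0.27), and 0.0147% of all probe sets passed there, with 11.9% at an unadjusted p under 0.05. Up to 60 min they were -0.38 ± 0.129 and -0.36 ± 0.192 per hour (adjusted p = 0.506 and 0.758), with 0.142% of all probe sets past the threshold and 7.45% at an unadjusted p under 0.05. Step and slope fitted together gave slopes of -0.30 and -0.22 per hour (adjusted p = 0.145 and 0.168), and no probe set (0%) passed on its slope there, with 3294 (16.2%) at an unadjusted p under 0.05.

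The 5 named genes whose course was closest to that of 1417262_at over the 13 arrays were sought among 7808 genes at or above the 40th percentile. They were Rnd3 (Pearson r = 0.99), a small GTPase gene, and Chka (0.97), the choline kinase that starts phosphatidylcholine synthesis. Klf6, a Kruppel-like transcription factor, had r = 0.97, Wasl, whose product promotes actin nucleation, 0.97, and Epgn, a ligand of the EGF receptor, 0.96. Their fitted falls over 4 h were 1.57-fold, 2.07-fold, 2.40-fold, 1.98-fold and 2.30-fold. From 80 min alone, over 9 arrays, r lay between 0.84 for Wasl and 0.96 for Rnd3. All were read on the same arrays as Ptgs2, so the correlations are a description.

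The start of Ptgs2, on the forward strand of mouse chromosome 1, is shown because this gene had the largest fitted change of the 7. The gene spans chr1:150100031-150108234. The sequence is from RefSeq on GRCm38.p6, chr1:150099781-150100060, from 250 bases before the annotated start to 30 after it, read 5′ to 3′. Capitals mark matches to any of 8 motifs, each searched on both strands. For the factors that answer cyclic AMP, the core of their response element was searched as TGACGT. For basic helix-loop-helix factors, the palindromic E-box was searched as CACGTG. For the C/EBP family, the full palindrome was searched as TTGCGCAA, and for the AP-1 factors, the heptamer was searched as TGANTCA. For Sp1 and its relatives the GC box was searched as GGGCGG, for the general machinery the TATA box was searched as TATAAA, and the CCAAT box was searched by the letters of its name. The p53 family decamer was searched by its usual pattern.

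Ptgs2: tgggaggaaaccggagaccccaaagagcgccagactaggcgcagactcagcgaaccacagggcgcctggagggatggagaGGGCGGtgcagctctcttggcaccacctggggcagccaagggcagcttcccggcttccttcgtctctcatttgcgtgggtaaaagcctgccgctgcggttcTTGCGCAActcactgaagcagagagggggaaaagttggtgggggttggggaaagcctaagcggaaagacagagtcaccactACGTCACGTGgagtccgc

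The last run of capitals is a cAMP response element core, on the reverse strand from base 13 after the start, that overlaps an E-box from base 17. The C/EBP palindrome begins at base -69 and the GC box at base -170. The core element occurs in 7.26% of the 32851 RefSeq windows of this length, the E-box in 6.79%, the C/EBP palindrome in 0.18% and the GC box in 34.7%. The AP-1, TATA box, CCAAT box and p53 family letters are not in this window. All positions count from the annotated RefSeq start, which was not checked against a measured start of transcription. Bases beyond the 30 after it were not searched, so a motif absent here may lie just outside the window. They occur in 7.46%, 13.1%, 36.1% and 7.84% of windows.

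Ptges, which encodes the inducible microsomal prostaglandin E synthase that acts on the product of Ptgs2, rose while Ptgs2 fell. Its brighter probe set, 1449450_at, read 946.8 in untreated cells, 1014 at 20 min, 952.9 at 40 min and 981.9 at 60 min. Readings of 1299.8 at 80 min, 1312 at 100 min and 1318 at 120 min followed, then 1296 at 140 min, 1258 at 160 min and 1198 at 180 min. The last hour gave 1328 at 200 min, 1341 at 220 min and 1235 at 240 min. The 9 arrays from 80 min, between 1198 and 1341, all lay above the 4 earlier ones, between 946.8 and 1014.

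The other Ptges probe set, 1449449_at, read between 423.3 and 469.2 in the 9 arrays from 80 min, with a median of 441.9, and between 333.3 and 345.3 in the 4 arrays up to 60 min. The groups did not overlap here either. Over all probe sets, 7.18% had every array from 80 min above every earlier one, as Ptges had at both probe sets, and 6.73% had every one below, as Ptgs2 had at both.

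The second hour lay above the first by 0.41 ± 0.0499 on the log2 scale at 1449450_at (1.33-fold, adjusted p = 0.000216) and by 0.36 ± 0.0552 at 1449449_at (1.28-fold, adjusted p = 0.00102), where 6.61% of all probe sets passed as higher. The fourth hour lay above the first by 0.40 ± 0.0499 and 0.42 ± 0.0552 (adjusted p = 0.000143 and 0.000199), where 11.7% passed as higher. From the second hour on no change passed: the third hour differed from the second by -0.067 and 0.018, and the fourth from the third by 0.056 and 0.044. The linear trend gave 1.37-fold (0.45 ± 0.109, adjusted p = 0.00687) and 1.41-fold (0.49 ± 0.0953, adjusted p = 0.00167) over 4 h. The step between 60 and 80 min left 6.15% and 5.98% of the variance of these probe sets, against 43.9% and 31.0% left by the line. Within the arrays from 80 min the slopes were -0.014 and 0.024 per hour, and up to 60 min 0.020 and -0.0048 per hour, none of them past the threshold.

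The 3 named genes closest in course to 1449450_at were Ifitm2 (r = 0.98), an interferon-inducible membrane protein gene, Tnnt2 (0.97), a troponin gene, and Ppt1 (0.97), a lysosomal thioesterase gene. Their fitted rises were 1.45-fold, 1.60-fold and 1.31-fold. From 80 min alone r was 0.67, 0.48 and 0.63 over 9 arrays. Between the 2 Ptges probe sets themselves r was 0.95 over 13 arrays and 0.030 from 80 min.

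A transcript start of Ptges is shown beside that of Ptgs2 since the 2 genes moved in opposite directions. The gene spans chr2:30889471-30931020 on the reverse strand. The RefSeq start used lies inside that span, not at its upstream end, and the window is chr2:30903268-30903547 of GRCm38.p6, and is marked in the same way.

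Ptges: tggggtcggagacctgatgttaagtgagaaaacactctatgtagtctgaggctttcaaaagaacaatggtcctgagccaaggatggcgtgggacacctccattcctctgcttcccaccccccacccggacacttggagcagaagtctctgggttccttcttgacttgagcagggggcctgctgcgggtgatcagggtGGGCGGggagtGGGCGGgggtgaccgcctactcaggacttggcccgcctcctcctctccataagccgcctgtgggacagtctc

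Both runs of capitals are GC boxes, beginning at bases -53 and -42. None of the other 7 motifs is in this window, and the windows of Ptgs2 and Ptges have the GC box in common.

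**Figure D2:**
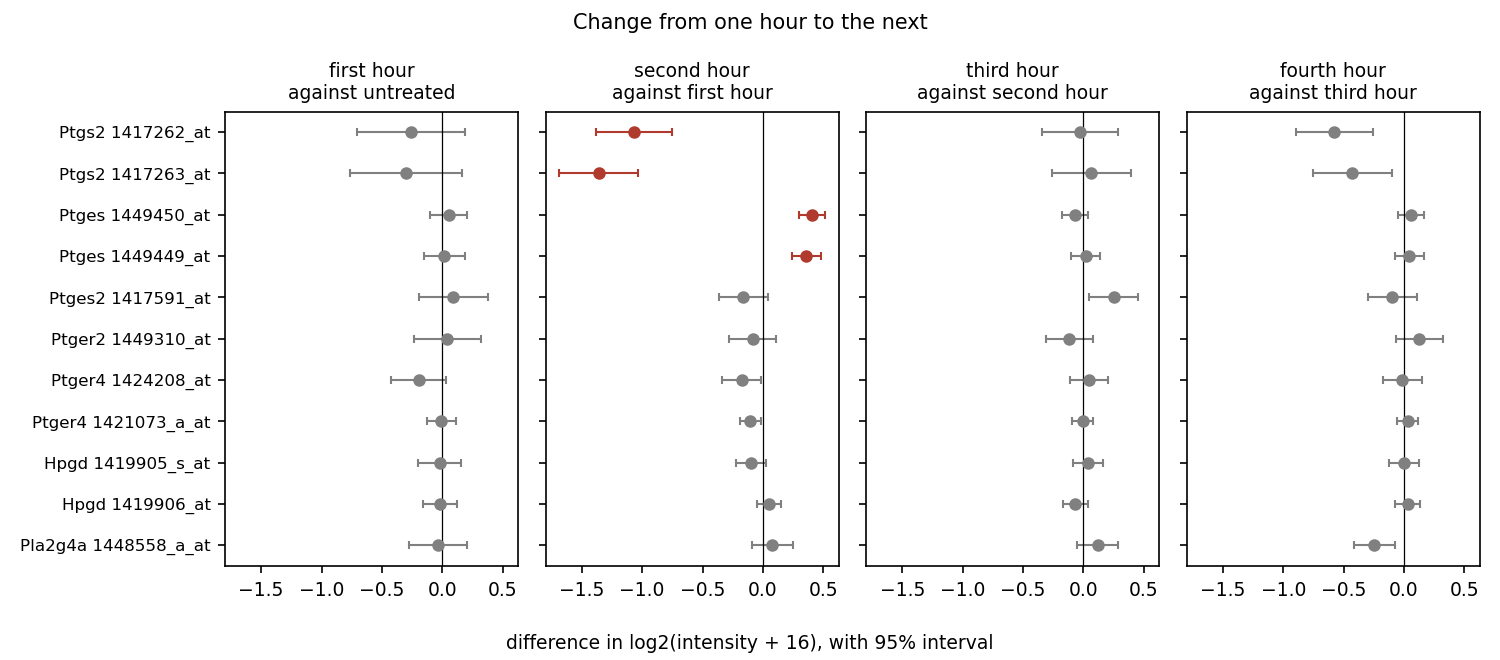
Difference in log2(intensity + 16) between each hour and the one before (x), for the 11 probe sets (y), with 95% intervals; the first panel sets the first hour against the single untreated array, and red marks an adjusted p under 0.05. In the second hour the Ptgs2 points lie at -1.07 and -1.36 and the Ptges points at 0.41 and 0.36, and no other point in the 4 panels passes.

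Ptges2 encodes a constitutive membrane-bound prostaglandin E synthase. Its probe set, 1417591_at, read between 288.7 at 80 min and 406.1 at 160 min, and 324.8 in untreated cells. The high and low arrays were scattered through the course: 400.2 at 60 min stood directly before the lowest reading. Its fitted change over 4 h was 0.11 on the log2 scale (95% interval -0.14 to 0.35, adjusted p = 0.581). The third hour differed from the second by 0.25 ± 0.094 (unadjusted p = 0.0189, adjusted p = 0.504). A natural cubic spline of time, which allows a bend and passed at 12% of all probe sets, did not pass for Ptges2 (adjusted p = 0.633). This spline passed without the 60 min array (adjusted p = 0.0429), and 24 of 25 alternative fits of it did not pass.

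Pla2g4a, the phospholipase at the head of the pathway, read between 350.1 at 200 min and 485.1 at 140 min, and 411.8 in untreated cells. Its fitted change over 4 h was 0.0058 on the log2 scale, with a 95% interval of -0.22 to 0.23 (adjusted p = 0.981). It read highest in the third hour, at a mean log2 level of 8.90 ± 0.0754, and lowest in the fourth, at 8.65 ± 0.125 (SD, 3 arrays each). The fourth hour thus differed from the third by -0.24 ± 0.0791, with an unadjusted p of 0.0084 and an adjusted p of 0.389. Ptgs2 at 1417262_at also read lower in the fourth hour than in the third. Pearson's r of Pla2g4a with 1417262_at was 0.80 over the 9 arrays from 80 min and 0.034 over all 13. With the other Ptgs2 probe set, 1417263_at, it was 0.67 and -0.11. The value of 0.80 was the highest from 80 min between member probe sets of different genes, and is a description.

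Ptger4 encodes EP4, the higher-affinity of the 2 receptors. Its brighter probe set, 1424208_at, read 263.0 in untreated cells, 215.3 at 20 min, 262.3 at 40 min and 207.8 at 60 min. The 9 arrays from 80 min read between 187.9 and 213.0. Only the 60 min array of the 4 earlier ones fell within that range. The untreated and 40 min arrays stood above all others. The dip at 20 min and return at 40 min was the same in direction as at both Ptgs2 probe sets. Its fitted change over 4 h was -0.24 (95% interval -0.44 to -0.039, adjusted p = 0.0834), and the second hour differed from the first by -0.17 ± 0.0745 (adjusted p = 0.152). With 1 array left out, the adjusted p of the trend lay between 0.0463, without the 100 min array, and 0.366. Of 29 alternative fits of the trend 4 passed and 25 did not. A step between 60 and 80 min was among the 4 (-0.20 ± 0.0566, adjusted p = 0.0161), and it passed at 25.1% of all probe sets. The single break that left the least variance, 31.7%, lay between 40 and 60 min.

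The second Ptger4 probe set, 1421073_a_at, was dim, at percentile 5.63 of mean level, and read between 78.4 and 90.3 on all 13 arrays. Its fitted change was -0.10 over 4 h (adjusted p = 0.145). The spline passed (adjusted p = 0.0431), and its adjusted p lay between 0.0314 and 0.13 with 1 array left out, under 0.05 in 2 of 13 such fits. The step passed (-0.10 ± 0.0271, adjusted p = 0.0116), as did the trend without the 240 min array (adjusted p = 0.00601). Of 26 alternative fits of the trend, 23 did not pass. The 2 Ptger4 probe sets had r = 0.43 over 13 arrays and -0.19 from 80 min.

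Ptger2, which encodes the EP2 receptor, read between 132.3 and 166.3 in the 9 arrays from 80 min and between 141.0 and 176.7 up to 60 min. The ranges overlapped, and the probe set, 1449310_at, lay at percentile 31.6 of mean level. Its fitted change over 4 h was -0.18 on the log2 scale (95% interval -0.38 to 0.028, adjusted p = 0.221). Without the 200 and 220 min arrays the slope passed (-0.080 per hour, adjusted p = 0.0209), while 25 of 27 alternative fits of it did not.

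Hpgd, the prostaglandin dehydrogenase gene, was near the bottom of the measured range. The probe sets 1419905_s_at and 1419906_at lay at percentiles 16.4 and 13.8, and read between 97.7 and 118.9 and between 97.2 and 110.0 over all arrays. Their fitted changes over 4 h were -0.065 (95% interval -0.20 to 0.068) and -0.016 (-0.12 to 0.089), with adjusted p of 0.53 and 0.87. Pearson's r between them was -0.40 over 13 arrays. No detection call was used, so a level so low does not tell a weak transcript from background.

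**Figure D3:**
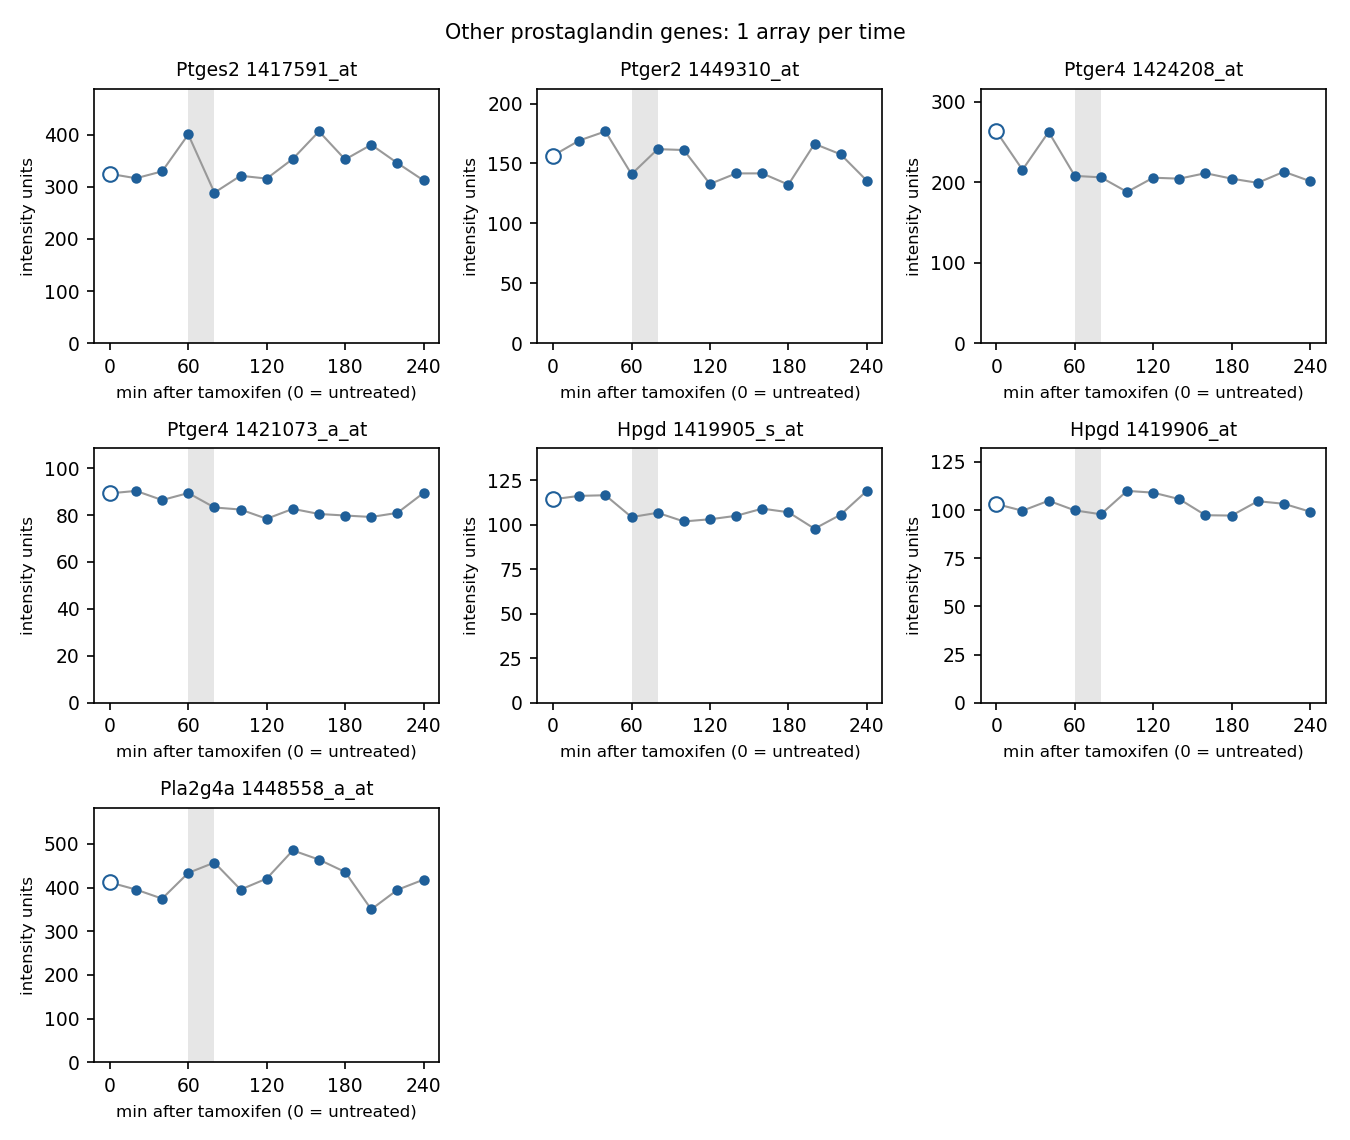
Intensity units (y, from 0) against minutes after tamoxifen (x) for the 7 probe sets of Ptges2, Ptger2, Ptger4, Hpgd and Pla2g4a, 1 point per array, with the untreated array as an open circle and 60 to 80 min shaded. Ranges before and after the shaded interval overlap in every panel.

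The rest of the pathway was read from 8 lists with 108 symbols, of which 91 were found. For a gene with several probe sets, the one with the highest mean was used. Over all 12394 genes so represented, 13.1% rose and 10.8% fell by the linear trend, with a median change of -0.0021 over 4 h on the log2 scale. These shares are the background for the counts below.

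Enzymes that shape the prostanoid mix moved in both directions. Of 10 other prostanoid synthases and reductases, 2 rose and 4 fell, with a median change of -0.018. Hpgds, the glutathione-dependent prostaglandin D synthase, fell 1.78-fold (log2 change -0.83, adjusted p = 0.000168). It read 404.6 in untreated cells, 330.0 at 60 min, 289.0 at 80 min and 251.1 at 240 min. Akr1c18, an aldo-keto reductase, fell 1.44-fold, while the carbonyl reductase genes Cbr3 and Cbr1 rose 1.60-fold and 1.36-fold. The other 2 that fell, Ptgr1 (1.29-fold) and Prxl2b (1.19-fold), were chosen after their values were seen. Hpgds is abundant in mast cells. All 7 mast cell markers lay below the 40th percentile, and 0 of them rose or fell. Their summed intensity was 812.8 to 911.0 in the arrays from 80 min and 830.2 to 945.4 up to 60 min. Of 10 immune cell markers 0 rose and 1 fell, the macrophage gene Cd68 (log2 change -0.55, adjusted p = 0.00151). Of 6 melanocyte markers 0 rose and 1 fell, Mitf (-0.35, adjusted p = 0.0119). Of 11 fibroblast markers 1 rose and 0 fell, and of 8 endothelial and muscle markers 1 rose and 0 fell. Of 15 keratinocyte markers 1 rose, Krt5 (0.10, adjusted p = 0.0195), and 2 fell. These were Ivl (-0.53, adjusted p = 0.000406) and Krt17 (-0.21, adjusted p = 0.0177). The part of any of these cell types in the fall of Hpgds was not tested.

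Of 20 phospholipases and acyl remodelling genes, 1 rose and 3 fell, with a median change of 0.00054. Pla2g7, a lipoprotein-associated phospholipase gene, fell 1.35-fold (adjusted p = 0.006). Anxa1, which encodes annexin A1, an inhibitor of phospholipase A2 activity, fell 1.12-fold from a very high level (adjusted p = 0.00588). The dim genes Pla2g2a and Pla2g15 fell 1.13-fold and rose 1.15-fold. Both of these calls were lost without the untreated, 20, 200, 220 or 240 min array, with adjusted p up to 0.0871 for Pla2g2a, whose call was also lost without the 40 min array, and up to 0.0744 for Pla2g15.

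Of 8 other prostanoid receptors 0 rose and 0 fell, with a median change of 0.015. In this list 6 of the 8 lay below the 40th percentile. Of 3 transport and breakdown genes 0 rose and 0 fell. Among them the prostaglandin transporter gene Slco2a1, chosen after its values were seen, had a change of -0.35 ± 0.138 (adjusted p = 0.0785).

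Known inducers and transcription factors of Ptgs2 fell more often than they rose: 8 of 16 fell and 1 rose, with a median change of -0.21. Il1a, an alarm cytokine stored in keratinocytes, fell 2.35-fold (adjusted p = 8.42e-05), the AP-1 gene Jun 2.0-fold (adjusted p = 0.00039) and Fos 1.59-fold (adjusted p = 0.027). The C/EBP factor genes moved in opposite directions. Cebpd rose 1.59-fold (adjusted p = 0.00487), while Cebpb, chosen after its values were seen, fell 1.45-fold (adjusted p = 0.000744). The call of Fos was lost without the untreated, 20 or 40 min array, with adjusted p up to 0.167.

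Of 8 genes for proteins that control decay of the Ptgs2 mRNA, 4 fell, 0 rose and 4 did not pass, with a median change of -0.27. Zfp36, which encodes tristetraprolin, a protein that binds AU-rich elements and speeds decay, fell 2.12-fold (log2 change -1.09, adjusted p = 0.000189). Celf2, which encodes an RNA-binding protein, fell 1.37-fold, and Zfp36l1 and Zfp36l2, relatives of Zfp36, fell 1.35-fold and 1.32-fold. The call of Zfp36l2 was lost without the untreated, 20 or 40 min array, with adjusted p up to 0.111. Both lists were drawn up with earlier results of these arrays known, and their counts are descriptions.

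**Figure D4:**
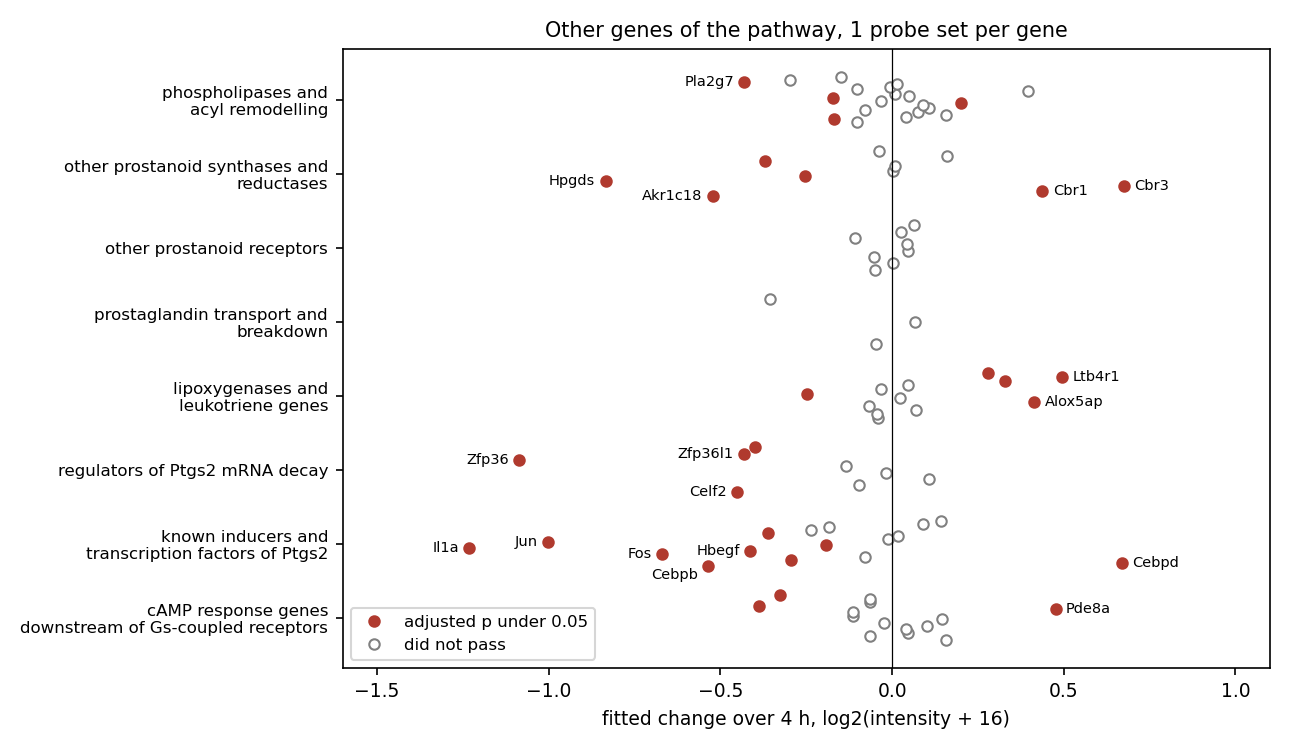
Fitted change over 4 h in log2(intensity + 16) (x) of each gene in the 8 lists (y), 1 point per gene, filled where the adjusted p was under 0.05, with names beside filled points beyond 0.4 in either direction. The fallen inducers and decay regulators reach -1.23 for Il1a and -1.09 for Zfp36, and no gene of the other prostanoid receptor list or the transport and breakdown list is filled.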

How the data were processed

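Per the labels, biotin-labelled cRNA made from Trizol-extracted total RNA was hybridised. What the authors deposited is 1 linear intensity for each probe set on each array. The summary and scaling methods are not given in the sources used here. If arrays were scaled to a common level, a change shared by most transcripts would be removed.

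Probe sets were named from the platform table: 20393 had 1 gene, 691 several and 1606 none. Symbols of 20364 were updated by Entrez identifier (RefSeq, GRCm38.p6). All 20393 entered limma 3.58.1 in R 4.3.3 (lmFit, eBayes with an intensity trend, two-sided, Benjamini-Hochberg over all) as log2(deposited intensity + 16), with no filter. The fits were a line in time, a spline with 3 degrees of freedom, and a factor of untreated and 4 hours. In the last, neighbouring times stand in for replicates, and the single untreated array borrows the spread of the rest. Since separate cultures are not stated, p-values reflect spread among these arrays alone, which may be technical. The median residual SD about the line was 0.0789 (log2), and the number of arrays limits precision. The line, the spline and the fourth hour against the first were tried on simulated data with independent noise and straight trends. Those data held no step and no effect shared within an array, so they cannot speak to either.

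Members, lists, windows and alternatives were chosen with earlier results of these data known. The text names every member, up to 4 called genes per list with the largest slopes, and the genes closest in course to a called member (5 for Ptgs2, 3 for Ptges). The cAMP and leukotriene lists stand in the closing section. Alternatives covered filters, pseudocounts, normalization, moderation, array weights, time scale, parts of the course and each array left out. The step in place of the line was added after seeing the data.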

Additional observations from a re-analysis of the deposited data

How the results depend on the processing

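No paired analysis was possible because each time had 1 array and no replicate. Over 77 results of the 11 probe sets, 1805 values were computed under alternatives. Of these, 1758 stayed on the same side of the threshold, 24 lost a call and 20 gained one, and 3 changed sign where 1 of the fits made a call. Among the 1758, 63 changed sign with no call in either fit. For the second and the fourth hour against the first, all 46 values each of Ptgs2 and of Ptges kept call and direction. The cause of the changes below was not tested.

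The linear trend called 4571 probe sets and 3114 to 4809 with 1 array left out. It called 3041 with 1 probe set per gene, 2968 with dim genes left out as well, 29 up to 60 min and 3 from 80 min, and 0 when a block separated the arrays at 60 and 80 min. Fewer probe sets were tested in the first 2 of these and fewer arrays used in the next 2. The spline called 2452, 1483 to 3612 with 1 array left out, fewest without the 20 min array, and 6361 with array weights. The first hour against untreated called 2, 1 to 2 with 1 array left out, 1 with dim probe sets left out, 1 with dim genes left out, 1 with median centring and 4 with array weights; it has no value without the untreated array. The second hour against the first called 2830, and 1704 (without 100 min) to 3186 with 1 array left out; without 40 min it called 1727. The third against the second called 0, also with each array left out. The fourth against the third called 0, 0 to 983 with 1 array left out (983 without the 240 min array) and 2458 with array weights. The fourth against the first called 4301, 2853 (without 40 min) to 4861 with 1 array left out, 6593 with array weights and 2117 without the 200 and 220 min arrays.

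Where the linear trend had passed, slopes per hour of opposite sign, none past the threshold, were these. With the step as a block: Ptges 1449450_at -0.012, Zfp36l2 0.050 and Fos 0.034. From 80 min: Ptges 1449450_at -0.014, Zfp36l2 0.055 and Fos 0.087. Up to 60 min: Ptges 1449449_at -0.0048, Pla2g15 -0.0031, Cbr3 -0.059, Ltb4r1 -0.16, Alox5ap -0.030, Celf2 0.092, Zfp36l2 0.00045, Jun 0.023, Cebpd -0.026 and Pde8a -0.26. Among members whose trend had not passed, slopes also turned for Ptger4 1421073_a_at (0.011), Hpgd 1419905_s_at (0.019) and Pla2g4a (-0.050) with the block. From 80 min they turned for the same 3 (0.013, 0.029 and -0.058) and for Ptger4 1424208_at (0.015). Array weights gave calls to Ptger2 (trend, adjusted p = 0.0347; spline, 0.0379), to Ptger4 1424208_at (trend, 0.0154) and to Ptger4 1421073_a_at (trend, 0.041, and 0.0497 in the second hour and 0.0209 in the fourth hour, each against the first). Both Ptgs2 probe sets then passed in the fourth hour against the third (0.0045 and 0.0139), as did Pla2g4a (0.0265).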

Other observations

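The lipoxygenase and leukotriene genes, only some of whose products act on the same arachidonic acid, were read by the same linear trend. Of 14 symbols 12 were found, and Alox5 was not among them. Of the 12 genes 4 rose and 1 fell, against 13.1% of all genes rising and 10.8% falling. The median change was 0.035 over 4 h on the log2 scale. None of the 4 that rose encodes a lipoxygenase. Ltb4r1, the leukotriene B4 receptor gene, rose 1.41-fold (adjusted p = 0.00215). It read 205.7 in untreated cells, 187.0 at 60 min, 256.4 at 80 min and 277.8 at 240 min. Alox5ap, which encodes the activating protein of arachidonate lipoxygenase, rose 1.33-fold (adjusted p = 0.00196), and Lta4h, the leukotriene A4 hydrolase gene, rose 1.25-fold (adjusted p = 0.00132). Ltc4s, the leukotriene C4 synthase gene, rose 1.21-fold (adjusted p = 0.0426), a call lost in 8 of the 13 fits that left out 1 array (adjusted p up to 0.14) and with median centring (0.0519). The 1 that fell, Aloxe3, an epidermal lipoxygenase gene of the skin barrier (1.19-fold, adjusted p = 0.0249), was chosen after its values were seen.

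Cyclic AMP is the second messenger of the Ptger2 and Ptger4 receptors. Of 14 genes that respond to it or take part in its signalling, 1 rose and 2 fell (median change -0.043). Over all genes 13.1% rose and 10.8% fell. Per1, a clock gene, fell 1.31-fold (adjusted p = 0.000651) and Sik1, a salt-inducible kinase gene, fell 1.25-fold (adjusted p = 0.00522). Pde8a, a phosphodiesterase gene, rose 1.39-fold (adjusted p = 0.0209), a call lost without the 20 min array (0.0573). The nuclear receptor genes Nr4a1, Nr4a2 and Nr4a3, chosen after their values were seen, had adjusted p of 0.869, 0.17 and 0.434.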
